A study of Homo sapiens with 30 samples.

Results

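RNA of LNCaP cells that re-expressed a lysine-to-alanine mutant of FOXA1 (K295A) was compared with RNA of cells that re-expressed wild-type FOXA1 (WT), gene by gene. The genes were those with a value of at least 1 RPKM in at least 3 of the 6 libraries, 12039 of the 26443 genes with values in the table. LNCaP is a line of human prostate cancer cells that respond to androgen, and 30 of its libraries in 10 groups of 3 make up the series. The K295A group carried an shRNA against FOXA1 together with an HA-tagged FOXA1 in which the lysine is replaced by alanine. The WT group carried the same shRNA with HA-tagged wild-type FOXA1. Values of 2 further groups, the shFoxA1 knockdown with no re-expressed FOXA1 and the pGIPZ vector control, are given beside them, and 3 called sets come from shFoxA1 against pGIPZ, shFOXA1 against the pLKO vector and siEZH2 against siCtrl. RNA was taken 5 days after infection with shRNA and 4 days after siRNA, per the labels, whose stated range stops before the third K295A library. All cells in the K295A, WT and shFoxA1 knockdown groups carried the FOXA1 shRNA, so the K295A and WT cells could hold residual endogenous FOXA1, and gene-level RNA values cannot separate it from the re-expressed copy. The labels do not say whether the 3 libraries of a group were separate cultures, so p-values measure only the spread between these libraries.

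FOXA1 is a pioneer transcription factor of the forkhead family. It binds nucleosomal DNA and opens it for other factors. In prostate epithelium many of its target regions lie at secretory, lipid and kallikrein genes that respond to androgen. By the title of the series, the study is about how polycomb proteins and the BUB3 and USP7 proteins act on the stability of FOXA1 protein. EZH2 is the methyltransferase of polycomb complex PRC2, BUB3 a spindle checkpoint protein and USP7 a deubiquitinase. The libraries measured RNA, not protein.

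The 6 libraries held an estimated 9475000 to 14530000 reads, and 11951 to 12000 genes per library reached 1 RPKM. The second WT library was the shallowest and the third WT library the deepest. Log2 values of a K295A and a WT library correlated across genes at r of 0.98945 to 0.99219 (9 pairs), against 0.99012 to 0.99225 between libraries of the same group (6 pairs). Genes are not independent replicates, so these r carry no test. The 8 luminal prostate markers summed to 1791 to 1812 RPKM in the K295A libraries and to 1840 to 1890 RPKM in the WT libraries, which fits the label of the cell line. The 6 immune markers summed to at most 0.456 RPKM in a K295A library and 0.292 RPKM in a WT library. In a longer immune list of 10 genes, 1 was expressed enough to be tested, the lysosomal and macrophage gene CD68, at 9.06, 9.56 and 10.8 RPKM in the K295A libraries, against 9.47, 9.44 and 8.23 RPKM in the WT libraries. The groups overlapped (0.10, adjusted p = 0.702).

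FOXA1 RNA (chr14:37589984-37596059, GRCh38) was close to equal in both re-expressing groups. It stood at 154.72, 149.41 and 150.03 RPKM in the K295A libraries, against 150.8, 152.5 and 152.2 RPKM in the WT libraries. The shFoxA1 knockdown libraries held 80.4 to 84.0 RPKM and the pGIPZ libraries 129.6 to 134.2 RPKM. The K295A and WT libraries overlapped, and all 6 lay above every knockdown and every pGIPZ library. The difference, K295A minus WT on the log2(RPKM + 1) scale, was -0.0042 ± 0.024 (SE, n = 3 libraries per group), with a 95% interval of -0.057 to 0.049 and an adjusted p of 0.97 in limma. The close relatives FOXA2 and FOXA3, which bind like sites in endoderm, were at or below 0.0892 RPKM in all 12 libraries of the table and were not tested.

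The partners named in the title were not called at the RNA level. EZH2 stood at 13.8, 14.1 and 13.1 RPKM in the K295A libraries, against 12.3, 12.3 and 12.5 RPKM in the WT libraries. No K295A library reached down to a WT one, but the difference of 0.13 ± 0.039 did not pass the test (adjusted p = 0.237). USP7 differed by 0.04 (adjusted p = 0.717) and BUB3 by 0.08 (adjusted p = 0.586).

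Few genes differed, and most by little. At a Benjamini-Hochberg adjusted p under 0.05 in limma, 25 of 12039 genes were called, 0.208% of those tested. Of these, 11 (0.0914%) were higher in K295A cells and 14 (0.116%) were lower. Without adjustment, 1283 genes (10.7%) had a p under 0.05. In all 25 called genes, the 3 K295A libraries lay wholly above or wholly below the 3 WT libraries. Over all genes tested, such a gap with K295A on the higher side occurred in 1289 genes (10.7%), and with K295A on the lower side in 664 (5.52%). These shares depend on scaling, since after median-ratio scaling of the libraries they were 7.63% and 7.82%, so shares of gene lists and sets below are also given after scaling.

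The middle 90% of the differences ran from -0.15 to 0.17 on the log2 scale, around a median of 0.019. Of the 25 called genes, 19 differed by less than 0.5. At least 2-fold called differences were seen only in 3 short RNA genes, all lower in K295A cells. A fold here is one of RPKM + 1, which is smaller than the fold of RPKM, most of all in low genes. IFIT3 was 60.6% higher in mean RPKM in K295A cells, yet its difference of 0.575 is below 1.5-fold (0.585 on the log2 scale). For 11519 genes (95.7%) the 95% interval of the difference, unadjusted, lay within 1.5-fold of RPKM + 1 in both directions. Among the 5563 genes with a mean of at least 10 RPKM this share was 99.0%. The median half-width of the interval was 0.14 on the log2 scale over all genes and 0.10 over these, which is near the size of the smallest called differences, so differences that small could be missed in most genes. The median called gene had a mean of 37.6 RPKM, against 8.80 RPKM over all genes tested, and the genes called lower were the more abundant ones, with a median of 146 RPKM against 9.79 RPKM for those called higher.

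**Figure D1:**
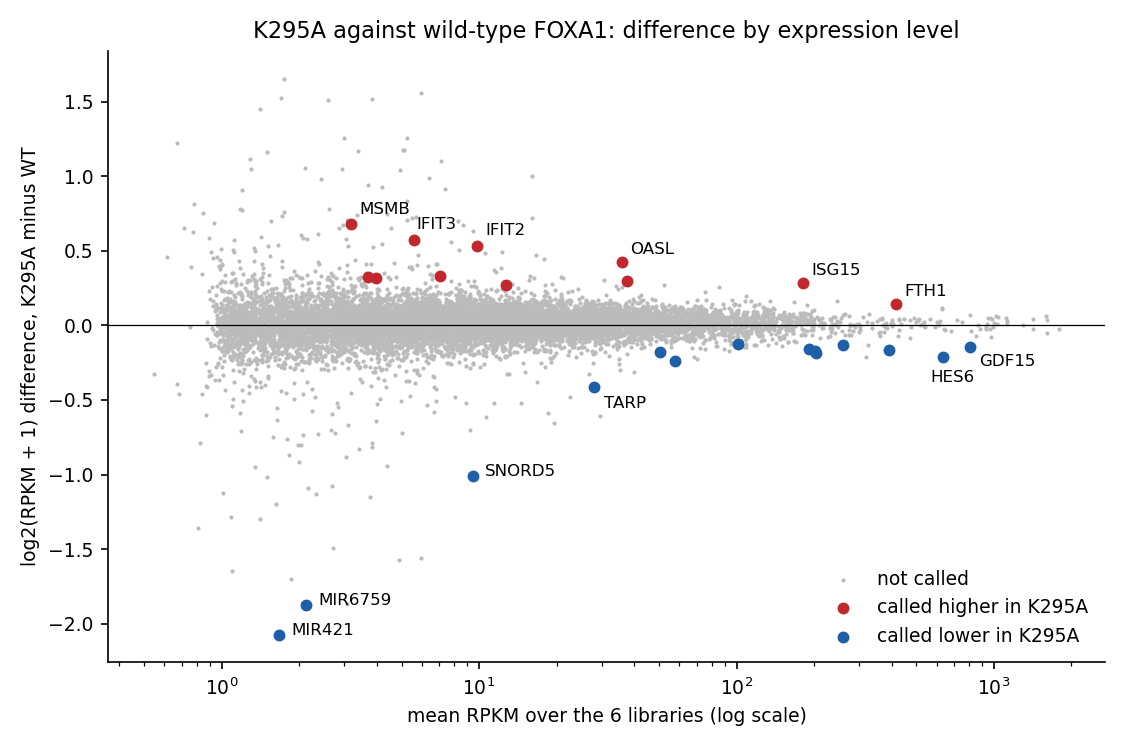
Each point is 1 of 12039 genes, with its mean RPKM over the 6 libraries on the x axis (log scale) and the K295A minus WT difference of log2(RPKM + 1) on the y axis. Coloured points are the 25 called genes, of which only the 3 short RNA genes MIR421, MIR6759 and SNORD5 pass a difference of 1 in size.

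Genes of the interferon response made up 5 of the 11 genes higher in K295A cells. These genes are induced through factors such as STAT2 and IRF9 when cells sense viral RNA or interferon. IFIT1, IFIT2 and IFIT3 encode neighbouring antiviral proteins that bind RNA or each other, OASL a relative of the 2-5A synthetases, and ISG15 a ubiquitin-like modifier. IFIT3 (chr10:89327894-89340971) stood at 6.42, 7.00 and 7.24 RPKM in the K295A libraries, against 4.22, 4.39 and 4.27 RPKM in the WT libraries. The lowest K295A library was well above the highest WT library, and the difference was 0.58 ± 0.048 (SE, adjusted p = 0.000823). OASL (chr12:121019111-121039242) stood at 42.9, 40.6 and 40.5 RPKM in the K295A libraries, against 29.97, 31.54 and 29.98 RPKM in the WT libraries. Its libraries were as clearly apart, with a difference of 0.43 ± 0.039 (adjusted p = 0.00101). IFIT3 and OASL were the only 2 of the 25 genes called under each of the 14 alternative settings tried. The short RNA gene MIR421 was called under 12, and the filters of the others left it out. In bulk RNA, more cells expressing a gene and more RNA per cell cannot be told apart.

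IFIT2 (chr10:89283694-89309276) stood at 11.0, 11.6 and 12.7 RPKM in the K295A libraries, against 8.33, 7.04 and 8.08 RPKM in the WT libraries. It differed by 0.54 ± 0.065 (adjusted p = 0.00571). IFIT1 (chr10:89392546-89406486) stood at 4.32, 4.37 and 4.05 RPKM in the K295A libraries, against 3.18, 3.24 and 3.13 RPKM in the WT libraries. The groups again did not overlap, and the difference was 0.33 ± 0.042 (adjusted p = 0.00818). IFIT1 and IFIT2 were each called under 13 of the 14 alternatives, the exception being a fit of the 6 libraries alone. ISG15 (chr1:1001138-1014540), by far the most abundant of the 5, stood at 195, 192 and 211 RPKM in the K295A libraries, against 166, 166 and 159 RPKM in the WT libraries. The difference of 0.28 ± 0.045 (adjusted p = 0.0305) passed in 1 of 6 repeats that left out a library, the one without the second K295A library, and the adjusted p ranged to 0.123 in the others. The 3 IFIT genes lie inside the annotated span of LIPA on the opposite strand, and reads of the 2 strands may not be separated. LIPA, the lysosomal acid lipase gene, averaged 17.0 ± 0.165 RPKM in K295A cells and 17.6 ± 0.899 RPKM in WT cells (SD, n = 3 each), a difference of -0.05 (adjusted p = 0.755).

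Promoter sequence is shown for interferon genes because they moved together and many hold a known element, the interferon-stimulated response element. It was searched as GAAA, any 2 bases and GAAA on both strands. The RefSeq windows ran from 250 bases before to 50 bases after each start (GRCh38.p14). Capitals mark the match, and each stretch is the 30 bases around it on the plus strand, 5′ to 3′.
IFIT3 chr10:89332468-89332497: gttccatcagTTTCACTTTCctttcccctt
IFIT1 chr10:89392497-89392526: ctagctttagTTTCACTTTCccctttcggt
ISG15 chr1:1013380-1013409: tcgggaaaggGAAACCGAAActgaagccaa
GNAI1 chr7:80135626-80135655: ttcgcggctaGAAAATGAAAacaccccccc
In IFIT3 and IFIT1 the match reads on the strand opposite to the gene, and it is the same 10 letters in both. GNAI1, an inhibitory G protein subunit, is not an interferon gene of the list and is shown because it was the fourth called gene with a match. ISG15 and IFIT1 held 2 matches each, of which 1 is shown, and IFIT3 held 4 in windows at 2 starts. No match was found for IFIT2 and OASL, which are called interferon genes too, and whether they had a window is not given. A match was found in 4 of the 7 genes called higher that had a window (57.1%) and in 0 of the 8 called lower, genes without a window not counted. It was found in 21 of 32 tested interferon genes with a window (65.6%) and in 3.57% of the 9453 tested genes with one. The forkhead motif TGTTTAC, searched the same way, was found in 0 of 7 genes called higher and in 1 of 8 called lower, GDF15, against 3.41% of tested genes with a window. A match is a description of the sequence and not evidence of binding.

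Of 52 listed interferon genes, 41 were tested, and 5 were called higher and 0 lower. The median difference of the 41 was 0.12, against 0.019 over all genes tested. Above 0 lay 37 of them, beside 7215 of all 12039 genes before scaling. Of all genes tested, 0.0914% were called higher. In 14 members (34.1%) all K295A libraries lay above all WT libraries, against 10.7% of all genes. After scaling the share was also 34.1%, against 7.63% of all genes. RSAD2, an antiviral enzyme, stood at 3.45, 3.43 and 4.01 RPKM in the K295A libraries, against 2.22, 2.55 and 2.71 RPKM in the WT libraries, and narrowly did not pass (0.41, adjusted p = 0.0676). IFI44 (0.32, adjusted p = 0.0589) and IFI6 (0.22, adjusted p = 0.055) had separate libraries too without passing. CXCL10, an interferon-induced chemokine kept in another list, stood at 4.01, 3.51 and 4.09 RPKM in the K295A libraries, against 2.71, 3.12 and 2.89 RPKM in the WT libraries (0.32, adjusted p = 0.055).

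Some further members differed by about as much as called ones without passing. The transcription factor IRF9 stood at 9.46, 8.85 and 9.34 RPKM in the K295A libraries, against 7.89, 6.66 and 7.79 RPKM in the WT libraries. It differed by 0.28 (adjusted p = 0.231). IRF1 (0.37, adjusted p = 0.128), IFITM1 (0.41, adjusted p = 0.205) and DDX58 (0.27, adjusted p = 0.123) also had separate libraries. BST2 overlapped between groups (0.52, adjusted p = 0.231). Other members differed by much less. The transcription factor STAT2 stood at 9.52, 9.93 and 10.4 RPKM in the K295A libraries, against 9.33, 8.77 and 10.2 RPKM in the WT libraries. The groups overlapped, with a difference of 0.07 (adjusted p = 0.688). The antigen presentation genes HLA-B, HLA-C, HLA-E, TAP1 and B2M differed by -0.02 to 0.03. MX1, an antiviral GTPase near 1 RPKM, had the lowest value of the list, -0.15 (adjusted p = 0.655). IFITM2, at 19.2, 21.6 and 20.2 RPKM in the K295A libraries, against 22.2, 22.1 and 23.4 RPKM in the WT libraries, was the 1 member whose K295A libraries all lay below (-0.15, adjusted p = 0.291).

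The 5 called interferon genes were highest in the pGIPZ cells. IFIT3 stood at 9.38, 10.0 and 10.2 RPKM in the shFoxA1 knockdown libraries and at 32.0, 30.6 and 30.8 RPKM in the pGIPZ libraries. OASL stood at 38.5, 36.4 and 35.3 RPKM in the shFoxA1 knockdown libraries, below all 3 K295A libraries, and at 153.5, 161.8 and 161.9 RPKM in the pGIPZ libraries. For IFIT1, IFIT2, IFIT3 and ISG15 the order was pGIPZ, shFoxA1 knockdown, K295A and WT from high to low, with no overlap between neighbours. Against the shFoxA1 knockdown, IFIT3 differed by -0.46 in K295A cells and by -1.04 in WT cells, and OASL by 0.17 in K295A cells and by -0.26 in WT cells. These comparisons share the knockdown libraries with each other and the K295A or WT libraries with the main one, so they are given as values only.

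**Figure D2:**
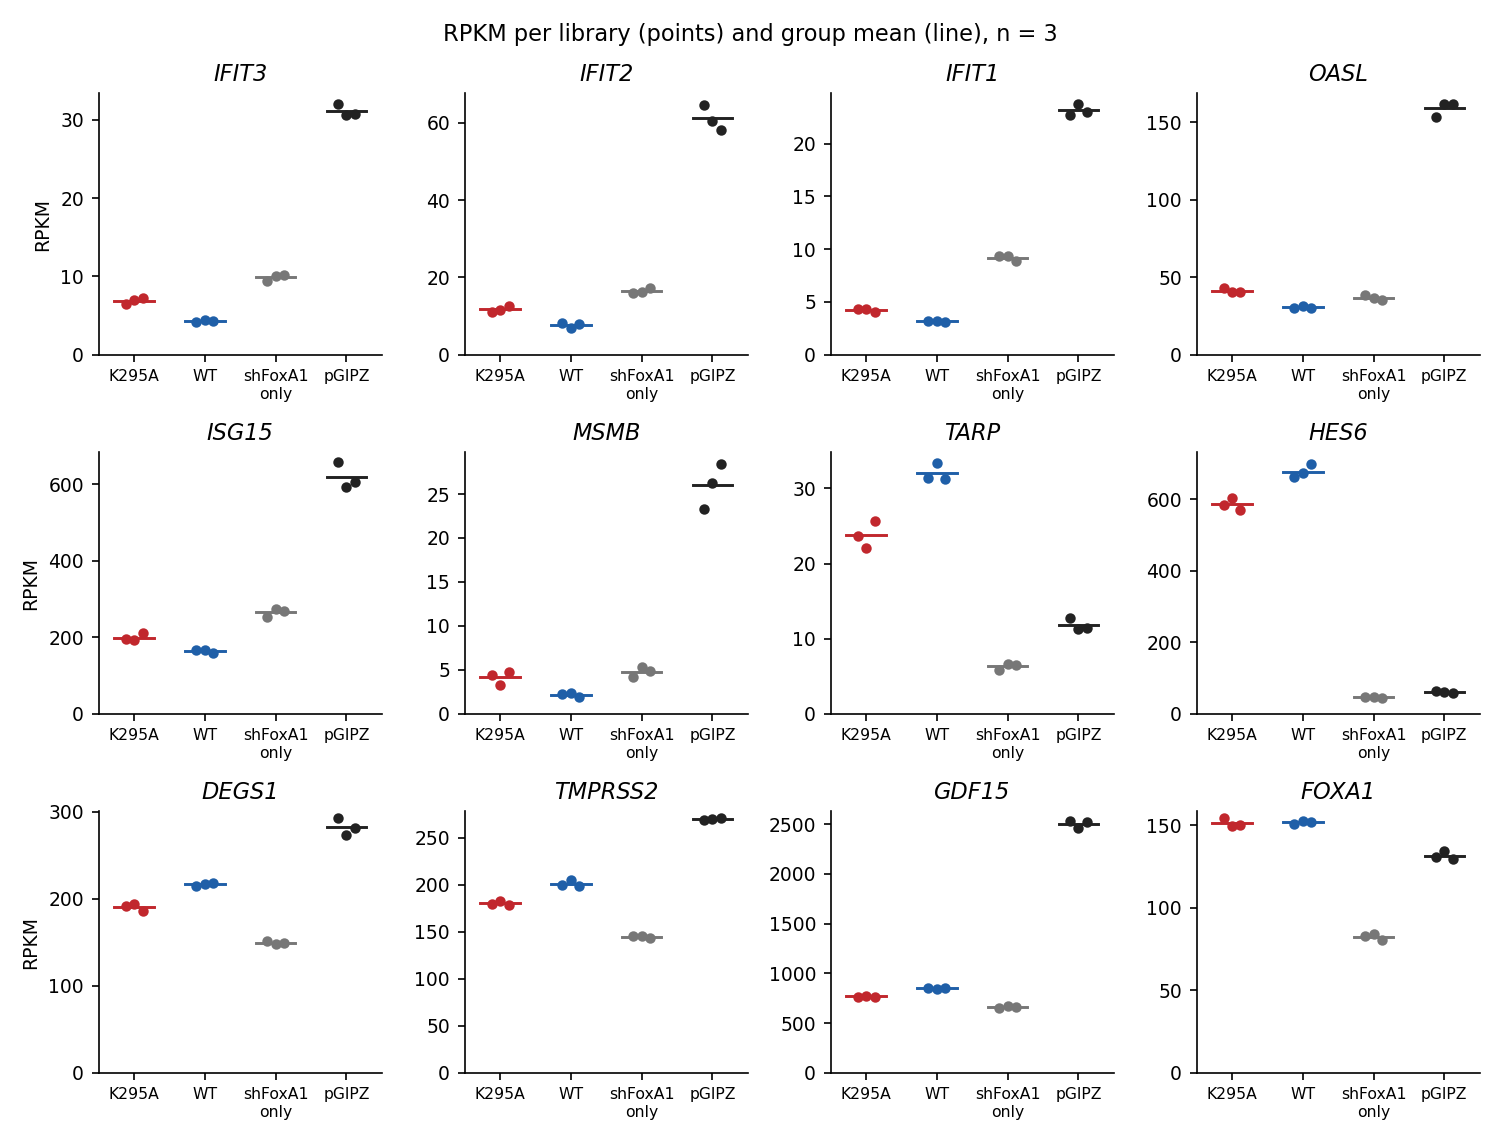
RPKM of 12 genes in each library (points) with the group mean (line), 3 libraries each of K295A, WT, the shFoxA1 knockdown and pGIPZ, with each y axis starting at 0. The interferon genes and MSMB are higher in K295A than in WT libraries, TARP, HES6, DEGS1, TMPRSS2 and GDF15 are lower, and FOXA1 is level between these 2 groups.

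Among androgen-induced genes, 4 fell and 0 rose in K295A cells out of 46 tested of 51 listed, kallikreins not counted. Of all genes tested, 0.116% were called lower and 0.0914% higher. FOXA1 binds beside androgen-responsive enhancers in prostate cells. Values are given for 3 of the 4. TMPRSS2 (chr21:41464551-41531116), a surface serine protease, stood at 179, 183 and 179 RPKM in the K295A libraries, against 200, 205 and 199 RPKM in the WT libraries. It fell by 10.3%, or -0.16 ± 0.020 (adjusted p = 0.00694). The gap between the groups was wider than the spread within either, and TMPRSS2 stayed called whichever library was left out.

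TARP, a transcript of the T cell receptor gamma locus that prostate cells express under androgen, stood at 23.65, 22.03 and 25.68 RPKM in the K295A libraries, against 31.3, 33.4 and 31.2 RPKM in the WT libraries. It had the largest difference in size among the 4, -0.41 ± 0.063 (adjusted p = 0.0225), and its reads may be split with other segments of that locus. It stayed called only without the third K295A library (adjusted p = 0.0242), and its adjusted p without any other library ranged to 0.103. ACSL3, an acyl-CoA synthetase, stood at 97.7, 96.4 and 96.6 RPKM in the K295A libraries, against 105.7, 105.5 and 106.2 RPKM in the WT libraries. The difference of -0.13 ± 0.022 (adjusted p = 0.0487) was just under the threshold and did not pass once any 1 library was left out.

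The median of the 46 androgen-induced genes was -0.07, against 0.019 over all genes. Below 0 lay 34 of them, beside 4824 of all 12039 genes before scaling. In 18 members (39.1%) all K295A libraries lay below all WT libraries, against the 5.52% of all genes, and in 3 all lay above. After scaling the share below was 41.3%, against 7.82% of all genes. Besides those called, these 18 held the metalloreductase STEAP2 (-0.13, adjusted p = 0.114) and the transporter ABCC4 (-0.15, adjusted p = 0.0709). ABCC4 stood at 52.7, 52.7 and 52.6 RPKM in the K295A libraries, against 59.7, 57.6 and 58.1 RPKM in the WT libraries. FKBP5, a chaperone of steroid receptors, overlapped between groups at 12.9, 13.4 and 13.2 RPKM in the K295A libraries, against 13.1, 14.5 and 13.9 RPKM in the WT libraries.

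The kallikrein proteases were not called. KLK3, which encodes prostate-specific antigen, stood at 825, 834 and 839 RPKM in the K295A libraries, against 862, 888 and 875 RPKM in the WT libraries. All K295A libraries were below all WT libraries, by 4.83% in the mean, and the difference of -0.07 ± 0.016 did not pass (adjusted p = 0.127). KLK2 stood at 71.8, 72.4 and 73.6 RPKM in the K295A libraries, against 78.7, 78.9 and 76.0 RPKM in the WT libraries (-0.10, adjusted p = 0.239). KLK4 overlapped between the groups (-0.01, adjusted p = 0.942).

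Of the lipid genes, 1 fell in each of 2 lists, and both are among the 4 androgen-induced genes that fell. Of 24 tested genes of cholesterol synthesis and uptake, 1 fell, beside 0.116% of all genes called lower. In 7 (29.2%, against 5.52% of all genes) all K295A libraries lay below, with a list median of -0.06. SC5D, which acts late in cholesterol synthesis, stood at 10.9, 10.2 and 10.4 RPKM in the K295A libraries, against 12.2, 11.7 and 12.4 RPKM in the WT libraries (-0.18, adjusted p = 0.154). Of 21 tested genes of fatty acid synthesis and desaturation, ACSL3 fell. In 8 (38.1%, against 5.52% of all genes) all K295A libraries lay below, with a list median of -0.08. The desaturase SCD stood at 121, 120 and 120 RPKM in the K295A libraries, against 131, 130 and 127 RPKM in the WT libraries (-0.10, adjusted p = 0.118). In 0 genes of either list did all K295A libraries lie above. After scaling, the shares below were 37.5% and 47.6%, against 7.82% of all genes. The regulators of these pathways overlapped between groups, SREBF1 at 0.00 (adjusted p = 0.972) and SREBF2 at -0.02 (adjusted p = 0.861), as did the abundant fatty acid synthase FASN at 370, 374 and 371 RPKM in the K295A libraries, against 372, 371 and 373 RPKM in the WT libraries.

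**Figure D3:**
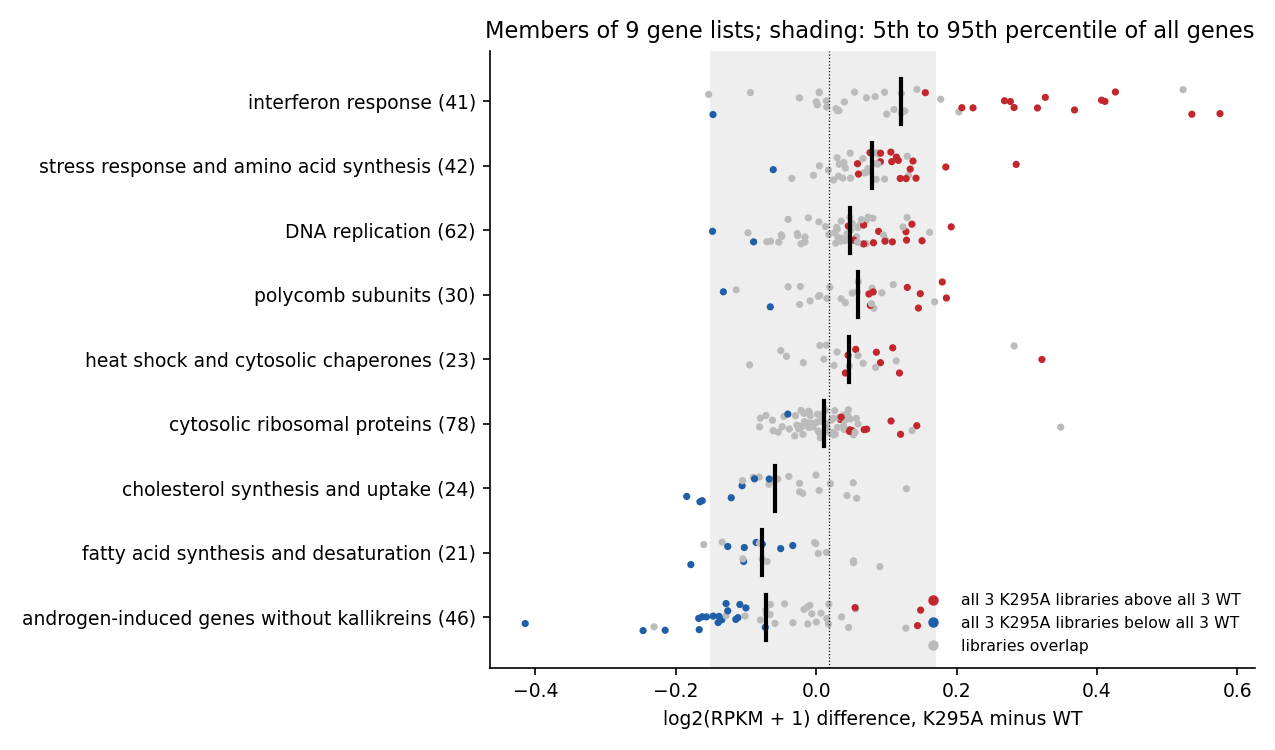
Each point is a tested member of 1 of 9 gene lists (number of members in parentheses) at its K295A minus WT difference of log2(RPKM + 1), with a bar at the list median and shading from the 5th to the 95th percentile of all genes. The interferon list reaches furthest to the right, while the androgen-induced and lipid lists lie mostly to the left of the dotted median of all genes.

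Other genes fell in K295A cells outside these lists or in lists of another kind. GDF15 (chr19:18374731-18389176), a stress-induced cytokine listed with p53 targets, stood at 766, 777 and 763 RPKM in the K295A libraries, against 858, 846 and 852 RPKM in the WT libraries. It fell by 9.75%, or -0.15 ± 0.017 (adjusted p = 0.00567), and was also called when the 6 libraries were fitted alone. The stretch of its promoter window that holds the forkhead motif, in capitals, is on the plus strand, which is the strand of the gene.
GDF15 chr19:18386051-18386080: ggtcattggagTGTTTACtctgcaggcagg
GDF15 stood at 652 to 669 RPKM in the shFoxA1 knockdown libraries and at 2457 to 2534 RPKM in the pGIPZ libraries. The other p53 targets included CDKN1A, a cell cycle inhibitor, at 99.6, 102 and 99.8 RPKM in the K295A libraries, against 107, 109 and 106 RPKM in the WT libraries, which did not pass (-0.10, adjusted p = 0.17). GDF15 was the only called gene of 40 tested p53 targets, whose median was 0.013, and -0.0027 after scaling.

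HES6 (chr2:238238267-238240662), a transcription factor related to the Notch effectors of the HES family, was among the most abundant called genes. It stood at 583, 603 and 570 RPKM in the K295A libraries, against 661, 673 and 698 RPKM in the WT libraries. The shFoxA1 knockdown libraries held 44.6 to 47.7 RPKM and the pGIPZ libraries 59.3 to 64.6 RPKM. Both re-expressing groups thus stood far above both others, by 3.64 for K295A and 3.85 for WT against the knockdown on the log2 scale. An effect of FOXA1 and one of the added construct cannot be told apart in that comparison. The difference between them, -0.21 ± 0.036, passed at an adjusted p of 0.0486 and did not pass once any 1 library was left out.

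The remaining abundant genes that fell differed by small and even amounts. DEGS1, a ceramide desaturase, stood at 191, 193 and 186 RPKM in the K295A libraries, against 215, 216 and 218 RPKM in the WT libraries (-0.18, adjusted p = 0.0126). MCCC2, a subunit of the leucine-degrading methylcrotonyl-CoA carboxylase, stood at 47.4, 47.6 and 47.3 RPKM in the K295A libraries, against 53.3, 54.7 and 53.3 RPKM in the WT libraries (-0.18, adjusted p = 0.00914). ATP1B1, the beta subunit of the sodium pump, stood at 186, 191 and 192 RPKM in the K295A libraries, against 216, 211 and 212 RPKM in the WT libraries (-0.17, adjusted p = 0.043). In these 3 genes the gap between the groups was wider than the spread within either. RDH11, a retinol dehydrogenase of prostate epithelium, fell by 8.6% (-0.13, adjusted p = 0.0225) and C9orf16 by 15.4% (-0.24, adjusted p = 0.0251). ATP1B1 and RDH11 did not pass once any 1 library was left out, DEGS1 passed without the first WT or the second K295A library, MCCC2 without the first WT, the third WT or the second K295A library, and C9orf16 without the first K295A library.

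Of the 6 genes that rose and are no interferon genes, MSMB had the largest difference. It encodes a secreted protein of prostate epithelium and is in the lists of luminal genes and of genes reported as repressed by EZH2. MSMB stood at 4.46, 3.24 and 4.75 RPKM in the K295A libraries, against 2.27, 2.35 and 1.95 RPKM in the WT libraries, or 28, 21 and 25 reads against 15, 11 and 14 reads. The difference was 0.68 ± 0.115 (adjusted p = 0.043). It passed in 1 of 6 repeats, the one without the second K295A library, and its adjusted p ranged to 0.214. The shFoxA1 knockdown libraries held 4.18 to 5.30 RPKM, overlapping the K295A libraries, and the pGIPZ libraries 23.3 to 28.4 RPKM. MSMB was the only called gene of 29 tested luminal genes and of 16 tested genes reported as repressed by EZH2. In this series MSMB was lower after siEZH2 against siCtrl (-0.72, adjusted p = 0.0011), not higher.

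FTH1, the heavy chain of the iron store ferritin, was the most abundant gene that rose. It stood at 440.5, 433.8 and 438.8 RPKM in the K295A libraries, against 397.7, 393.9 and 398.2 RPKM in the WT libraries. The difference was 0.14 ± 0.017 (adjusted p = 0.00567), and it stayed called whichever library was left out. The shFoxA1 knockdown libraries held 778 to 800 RPKM and the pGIPZ libraries 430.4 to 434.6 RPKM, close to the K295A libraries. FTH1 has processed copies elsewhere in the genome that may share its reads.

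BHLHE40, a transcriptional repressor of the circadian clock, stood at 14.3, 14.0 and 13.7 RPKM in the K295A libraries, against 11.8, 11.2 and 11.2 RPKM in the WT libraries (0.27, adjusted p = 0.00914). KLF4, a transcription factor of epithelial differentiation, stood at 8.42, 8.31 and 7.26 RPKM in the K295A libraries, against 5.94, 6.19 and 6.29 RPKM in the WT libraries (0.33, adjusted p = 0.0225). Both genes were higher in the shFoxA1 knockdown than in K295A and WT cells. The knockdown libraries held 30.3 to 32.3 RPKM for BHLHE40 and 16.3 to 16.8 RPKM for KLF4. In the pGIPZ libraries BHLHE40 stood lower than that, at 12.7 to 13.1 RPKM, and KLF4 higher, at 24.4 to 25.4 RPKM. GNAI1 stood at 39.9, 44.0 and 41.0 RPKM in the K295A libraries, against 33.6, 33.5 and 33.7 RPKM in the WT libraries (0.30, adjusted p = 0.0261). Its level was 6.43 to 6.64 RPKM in the shFoxA1 knockdown libraries and 2.10 to 2.46 RPKM in the pGIPZ libraries, so it lay highest in K295A cells among the 4 groups. FGFR1OP2 stood at 4.47, 4.43 and 4.65 RPKM in the K295A libraries, against 3.54, 3.22 and 3.52 RPKM in the WT libraries (0.32, adjusted p = 0.0367). GNAI1 and FGFR1OP2 did not pass once any 1 library was left out, KLF4 passed without the third K295A library, and BHLHE40 without the first WT, the second K295A or the third K295A library.

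Among the 25 called genes, the 3 with the largest differences in size were short RNA genes with few reads. Larger differences than that of SNORD5 occurred among genes that were not called, as the plot of differences by level shows. MIR421 and MIR6759 are microRNA genes and SNORD5 is a small nucleolar RNA that guides RNA modification. Their mature sequences are shown with the seed, bases 2 to 8, in capitals, since the seed sets the targets of a microRNA (RefSeq, GRCh38.p14).
hsa-miR-421: aUCAACAGacauuaauugggcgc
hsa-miR-6759-5p: uUGUGGGUgggcagaagucugu
hsa-miR-6759-3p: uGACCUUUgccucuccccucag
The 3 seeds differ from each other. MIR421 (chrX:74218377-74218461) was listed at 0 in all 3 K295A libraries, against 2.64, 4.97 and 2.43 RPKM in the WT libraries, which stand for 3, 4 and 3 reads over its 85 bases. It passed the test with an adjusted p of 0.0015. No fold is given because 1 group is at 0 and the other rests on 10 reads. The 0 in every K295A library adds no spread to the fit, and counting noise was not tested for MIR421. MIR6759 (chr12:57748618-57748682) rested on 1, 0 and 0 reads in the K295A libraries, against 3, 3 and 3 reads in the WT libraries. The ratio of reads was 0.114 after depth, with an exact 95% counting interval of 0.00259 to 0.821, and the gene passed at an adjusted p of 0.0305 that held only without the first K295A library. SNORD5 (chr11:93733228-93733300) rested on 4, 7 and 5 reads in the K295A libraries, against 13, 9 and 13 reads in the WT libraries. Its values of 4.31, 7.30 and 6.43 RPKM in the K295A libraries lay below 13.3, 13.0 and 12.3 RPKM in the WT libraries (-1.01 ± 0.128, adjusted p = 0.00694). The ratio of its reads was 0.468 after depth, with an exact 95% counting interval of 0.242 to 0.868.

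Whether any of these reads came from a mature microRNA was not tested. MIR421 lies inside FTX, MIR6759 inside CDK4 and TSPAN31, and SNORD5 inside TAF1D, and fragments of the host RNA cannot be told apart from those of the short gene. Of the hosts, CDK4, TSPAN31 and TAF1D were tested and not called. CDK4 averaged 63.0 ± 1.89 RPKM in K295A cells and 59.4 ± 0.798 RPKM in WT cells, and TAF1D 30.6 ± 0.701 RPKM in K295A cells and 29.7 ± 1.51 RPKM in WT cells (SD, n = 3 each), with adjusted p of 0.5 for CDK4 and 0.848 for TAF1D. In the shFoxA1 knockdown libraries SNORD5 rested on 2, 2 and 2 reads and in the pGIPZ libraries on 6, 8 and 7 reads.

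**Figure D4:**
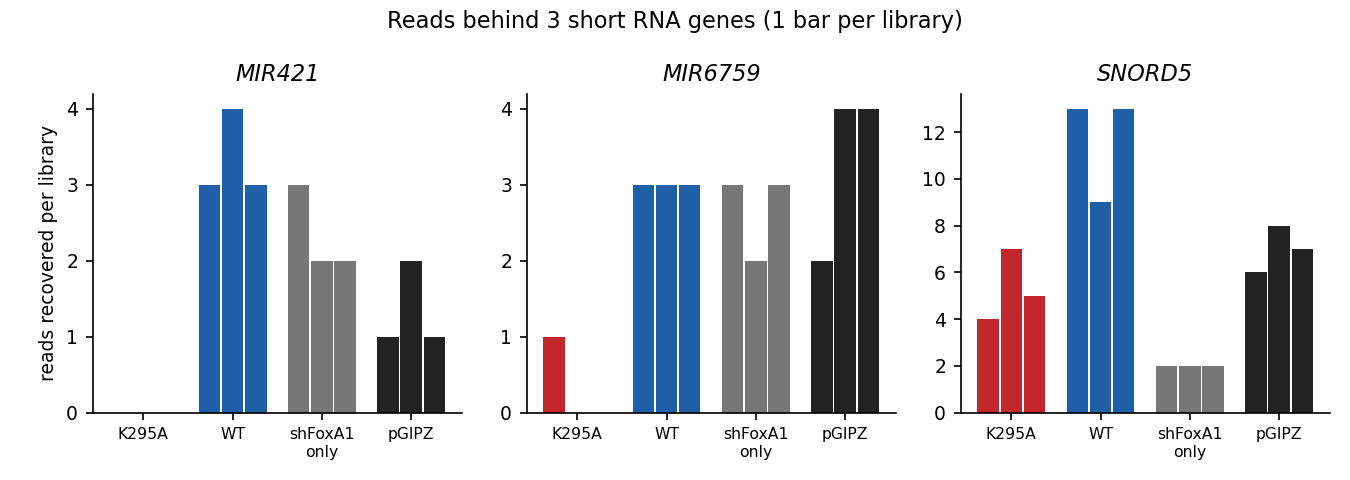
Bars give the reads recovered in each of 12 libraries for 3 short RNA genes, 1 bar per library and 3 per group, with K295A at the left. MIR421 has 0 reads in all K295A libraries and 3 to 4 in the WT libraries, so a few reads set each of these differences.

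Most gene lists held 0 called genes. Of 33 lists, 7 had a called member, and 14 of the 25 called genes were in none. The list of stress and amino acid synthesis genes, many driven by the factor ATF4 when amino acids or protein folding fail, had 0 called of 42 tested. Its median was 0.08, and 39 members lay above 0, beside 7215 of all 12039 genes before scaling. In 16 members (38.1%) all K295A libraries lay above, against 10.7% of all genes. After scaling this share was 26.2%, against 7.63%. ATF4 itself stood at 133, 135 and 130 RPKM in the K295A libraries, against 122, 129 and 117 RPKM in the WT libraries (0.11, adjusted p = 0.241). The serine synthesis gene PSAT1 stood at 90.0, 97.8 and 91.2 RPKM in the K295A libraries, against 84.4, 85.3 and 82.6 RPKM in the WT libraries (0.14, adjusted p = 0.183).

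Of 23 heat shock and chaperone genes, 8 (34.8%, against 10.7% of all genes) had all K295A libraries above, and 0 were called. After scaling the share was 17.4%, against 7.63% of all genes. HSPB1 stood at 649, 653 and 652 RPKM in the K295A libraries, against 604, 588 and 608 RPKM in the WT libraries (0.12, adjusted p = 0.17). Of 13 feedback genes of MAPK signalling, the phosphatase DUSP1 lay just outside the threshold at 14.9, 14.3 and 15.0 RPKM in the K295A libraries, against 12.3, 13.0 and 12.1 RPKM in the WT libraries (0.23, adjusted p = 0.05002). MYC stood at 123, 120 and 127 RPKM in the K295A libraries, against 114, 111 and 112 RPKM in the WT libraries (0.13, adjusted p = 0.132). The hypoxia gene NDUFA4L2 had one of the larger differences that did not pass, at 4.63, 4.75 and 6.16 RPKM in the K295A libraries, against 8.06, 8.71 and 7.77 RPKM in the WT libraries (-0.58 ± 0.117, adjusted p = 0.112).

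Polycomb subunits, the cell cycle and FOXA1 cofactors held 0 called genes. Of 30 polycomb subunits tested, 8 (26.7%, against 10.7% of all genes) had all K295A libraries above and 2 (6.67%, against 5.52%) all below, with a median of 0.06. After scaling these shares were 16.7% above, against 7.63%, and 10.0% below, against 7.82%, with a median of 0.04. SUZ12, a core subunit of PRC2, overlapped at 15.3, 15.9 and 15.2 RPKM in the K295A libraries, against 15.1, 15.8 and 15.3 RPKM in the WT libraries. The 62 DNA replication genes had a median of 0.05, and 0.03 after scaling, and the 61 mitotic genes one of 0.04, and 0.02 after scaling. All K295A libraries lay above in 21.0% of the replication genes and below in 3.23%, and in 16.1% and 4.84% after scaling. For the mitotic genes these shares were 9.84% and 3.28%, and 6.56% and 6.56% after scaling. The 15 tested forkhead genes had a median of 0.019, and 0.0025 after scaling, and the 23 cofactors and corepressors of FOXA1 one of 0.05, and 0.03 after scaling. All K295A libraries lay above in 21.7% of the cofactors and corepressors and below in 8.7%, and in 13.0% and 13.0% after scaling. The 49 deubiquitinases, the family of USP7, had a median of 0.022, and 0.0080 after scaling, and the 78 cytosolic ribosomal protein genes one of 0.011, and -0.0065 after scaling. Scaling moved the median of all genes from 0.019 to 0.0038.

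To place the difference against loss of FOXA1 or EZH2, genes called with at least a 2-fold change in the other comparisons were followed. The fold was one of RPKM + 1 or FPKM + 1. These comparisons contrast no K295A or WT library, but shFoxA1 against pGIPZ came from the same fit of 12 libraries. Its spread per gene was estimated partly from the K295A and WT libraries, so its called genes were not chosen independently of them. After shFoxA1 against pGIPZ, 100 genes (0.831%) were lower in this way and 189 (1.57%) higher. Of the 100, 6 rose in K295A against WT cells, namely MSMB, IFIT1, IFIT2, IFIT3, OASL and ISG15, and 4 fell, namely SNORD5, ACSL3, RDH11 and GDF15. In 21 of the 100 (21.0%, against 10.7% of all genes) all K295A libraries lay above and in 18 (18.0%, against 5.52%) all lay below, and the median was 0.03. After scaling the shares were 19.0% above and 21.0% below, against 7.63% and 7.82% of all genes, with a median of 0.02, so which side was larger depended on the scaling. Over all genes tested, 0.0914% were called higher and 0.116% lower. Of the 189, BHLHE40 and GNAI1 rose and 0 fell, with a median of 0.04, and 0.02 after scaling. In this set all K295A libraries lay above in 12.7% and below in 5.29%, and in 11.1% and 6.35% after scaling.

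After siEZH2 against siCtrl, 837 genes (7.03%) were at least 2-fold lower and 308 (2.59%) higher. Of the 822 lower ones that were tested here, 8 fell in K295A cells, among them TARP, HES6, DEGS1, MCCC2, TMPRSS2, GDF15 and ACSL3, and BHLHE40 rose. That is 8 of 822, beside 14 of 12039 genes (0.116%) called lower over all genes tested. In this lower set all K295A libraries lay above in 13.0% and below in 7.54%, against 10.7% and 5.52% of all genes. After scaling these shares were 9.61% and 11.6%, against 7.63% and 7.82% of all genes. Of the 254 higher ones tested, IFIT1, IFIT2, IFIT3 and OASL rose and SNORD5 and ATP1B1 fell. That is 4 called higher and 2 called lower, beside 0.0914% and 0.116% over all genes tested. In the higher set all K295A libraries lay above in 13.4% and below in 9.06%, and in 11.0% and 11.8% after scaling. The median was 0.03 over the lower set, and 0.0096 after scaling, and -0.0023 over the higher set, and across the alternatives the higher set ranged from -0.017 to 0.0052. After siEZH2 the log2 difference was -3.40 for TARP and -2.59 for TMPRSS2, and it was 1.86 for OASL and 1.22 for IFIT3, each larger in size than the K295A minus WT value.

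After shFOXA1 against pLKO, 1111 genes (8.87%) were at least 2-fold lower and 536 (4.28%) higher. Of the 1097 lower ones tested here, TARP, HES6, DEGS1, MCCC2 and RDH11 fell and MSMB rose. Of all genes tested, 0.116% were called lower and 0.0914% higher. All K295A libraries lay above in 12.8% of the 1097 and below in 6.93%, against 10.7% and 5.52% of all genes. After scaling these shares were 8.93% and 9.66%, against 7.63% and 7.82% of all genes. Of the 454 higher ones, OASL and KLF4 rose and ATP1B1 fell. In this set the shares were 11.7% above and 7.49% below, and 7.71% and 10.4% after scaling. OASL differed by 1.11 in shFOXA1 against pLKO and by -2.09 in shFoxA1 against pGIPZ, so the 2 knockdowns differed in direction for this gene. IFIT1 differed by 0.49 in shFOXA1 against pLKO and by -1.24 in shFoxA1 against pGIPZ, again in opposite directions.

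The number of called genes rested on every library. It was 6 higher and 10 lower without the first WT library, 5 and 5 without the second, and 8 and 6 without the third. It was 6 higher and 7 lower without the first K295A library, 10 and 9 without the second, and 8 and 6 without the third. Called in each of these 6 repeats were 10 of the 25 genes, among them IFIT1, IFIT2, IFIT3, OASL, FTH1, TMPRSS2, GDF15, MIR421 and SNORD5. When the 6 libraries were fitted alone, 3 higher and 3 lower genes passed, of which IFIT3, OASL, GDF15 and MIR421 were among the 25.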

How the data were processed

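RNA-seq values of LNCaP libraries were used as deposited. The authors deposited RPKM values for the pGIPZ table and FPKM values for the pLKO and siRNA libraries, and STAR and the build hg38 are named in the submitters' processing notes. On the counter, its strand setting, the annotation and the version of STAR nothing was given in the sources used here. Of 26475 rows, 32 held no values. Both units divide reads by gene length and library total, so a rise of abundant genes lowers all others. Whole reads were recovered from the steps of low values, and library totals from 363 short genes of known RefSeq length (94.2% within 2% of the median).

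Values were taken as log2(RPKM + 1), or log2(FPKM + 1), which understates changes of low genes. All 12 libraries of the RPKM table entered 1 fit by group with an intensity trend, in limma 3.58.1 under R 4.3.3, giving 8 residual degrees of freedom. Tests were moderated and two-sided, with Benjamini-Hochberg adjustment over the 12039 genes, and were checked on simulated data. No p was adjusted over a list alone. Genes were named by a rule: FOXA1, FOXA2, FOXA3, USP7, BUB3, EZH2 and KLK3, then the 10 highest and 10 lowest called genes, up to 3 called members per list and the 10 most abundant called genes. Some genes that the rule takes are not reported here. Other list members were chosen after their values were seen. The genes, the 33 lists and the tests were chosen with earlier results of these data known. Positions are from GENCODE 29 (GRCh38) and sequences from RefSeq (GRCh38.p14), by symbol. Python 3.11.15 with NumPy 2.4.6, pandas 2.3.3 and matplotlib 3.10.9 did the remaining steps. The alternatives were another pseudocount, filter, scaling, set of libraries, a replicate block, no intensity trend and each library left out.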

Additional observations from a re-analysis of the deposited data

How the results depend on the processing

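The counts of called genes, 11 higher, 14 lower and 3 at least 2-fold changed, depended on the settings, while 0 of the 25 called genes changed direction. The 6 libraries alone gave 3 higher and 3 lower. Without the intensity trend there were 6 higher and 2 lower. Without a low-value filter, over 20656 genes, there were 6 lower, and with a value of at least 1 in all 6 libraries 1 gene was at least 2-fold changed. Leaving out 1 library gave 5 to 10 higher, 5 to 10 lower and 1 to 3 at least 2-fold changed. Without 320 short RNA genes, an alternative chosen after seeing the data, 17 were higher, 11 lower and 0 at least 2-fold changed. A pseudocount of 0.1 gave 14 higher and 13 lower. Median-ratio scaling gave 11 higher and 20 lower, all 25 among them, and moved the median of all genes to 0.0038. The causes of these shifts were not tested. A fit with the replicate block called 6 higher and 8 lower genes, all 14 among the 25. Same-numbered K295A and WT libraries deviated with correlations of -0.0191, -0.0584 and -0.0758, and 0 of 3 K295A libraries correlated best with the WT library of its own number, so the numbers were not taken as pairs. MIR421, MIR6759 and SNORD5 rest on at most 13 reads per library, so depth limits these calls.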
